A study of Danio rerio with 6 samples.

Results

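Translation initiation and elongation factors were taken as every row of the count tables whose symbol begins with eif or eef followed by a digit, which gave 78 genes of 29095, 63 of them initiation factor genes (eif) and 15 elongation factor genes (eef). The tables come from ALL tumours, acute lymphoblastic leukaemias that arise from early lymphocytes, in CG2 strain zebrafish. From each of 3 tumours, numbered 1404, 1279 and 1314, the side population (SP) and the non-side population (nonSP) were sorted, giving 3 SP and 3 nonSP libraries in 3 pairs. By convention SP cells pump out a DNA-binding dye and nonSP cells keep it. The labels name no treatment and no other difference between the fractions, and strain and tissue are shared by all 6 libraries. The question asked here is whether the SP and nonSP cells of a tumour differ in these genes, and whether initiation factors differ from elongation factors in that respect. Values for the tumours are given in the order 1404, 1279 and 1314 throughout.

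Protein synthesis starts when the GTPase eIF2 brings the initiator tRNA to the small ribosomal subunit, where the many-subunit complex eIF3 and the small factors eIF1, eIF1A and eIF5 hold it in a scanning state. The cap-binding complex eIF4F, made of the cap binder eIF4E, the scaffold eIF4G and the RNA helicase eIF4A, loads this assembly on the messenger, and eIF5B joins the large subunit. During elongation the GTPase eEF1A delivers aminoacyl-tRNA and is recharged by the exchange complex eEF1B, while eEF2 moves the ribosome along the messenger. Kinases of eIF2, the exchange factor eIF2B, proteins that bind eIF4E and the kinase of eEF2 set the pace of these steps. In mammals the messengers of eEF1A, eEF1B, eEF2, some eIF3 subunits and the ribosomal proteins carry a 5′ terminal oligopyrimidine (TOP) tract, through which the kinase mTOR controls their translation as a group.

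Total counts ranged from 30213658 to 62398607 per library, and 77 of the 78 genes had at least 1 count in every library. The values are counts per gene without correction for length, so levels are compared between libraries and not between genes. Levels are given as CPM, counts brought to a common library size by the library total and a TMM factor (trimmed mean of M-values, which sets the bulk of genes equal). TMM factors ranged from 1.21 to 1.76 in SP and from 0.587 to 0.817 in nonSP. Ribosomal protein genes took 34.7% to 37.7% of counts in SP and 50.0% to 54.7% in nonSP. Of the 12 lymphoid markers listed, 11 were found, and their summed level was 138 to 767 CPM in SP and 305 to 1059 CPM in nonSP. Among them rag2 and ptprc fell in SP and 0 rose. The lymphoid sum joins T-cell and B-cell genes. lck and cd8a, of T cells, stood at 237 to 286 and 25.2 to 34.8 CPM in tumour 1279. In tumours 1404 and 1314 they reached at most 23.3 and 0.934 CPM. pax5 and cd79b, of B cells, reached at most 0.113 and 0.0154 CPM in tumour 1279. In tumours 1404 and 1314 they ranged from 16.8 to 32.8 and from 5.6 to 9.34 CPM. Whether this bears on differences among tumours below was not tested. Markers of other cells were lower in sum than the lymphoid markers, and among them mpx, slc4a1a, dcn, ttna and neb rose in SP. Others of the same lists did not. The log2 fold change of spi1b was -0.51, and mylpfa, at 2 to 9 counts, was lower in SP in each tumour. The erythroid gene hbaa1 had 0 to 3 counts in SP against 0 to 21 in nonSP. The fibroblast genes col1a1a and pdgfra had at most 12 and 7 counts and were not tested. Myeloid markers (6 found, 1 of 3 tested higher in SP) summed to 4.52 to 48.4 CPM in SP and 2.43 to 15.6 in nonSP. This sum joins unlike genes. mpx was at 37.3, 3.55 and 3.12 CPM in SP and 2.77, 0.846 and 0.176 CPM in nonSP, without overlap. spi1b was at 10.4, 0.0308 and 5.68 CPM in SP and 12.4, 0 and 10.9 CPM in nonSP. Muscle markers (5 found, 2 of 2 tested higher) summed to 35.9 to 73.3 CPM against 4.11 to 28.4, with the muscle creatine kinase gene ckma at 0 to 2 counts. Erythroid (1 of 2 tested higher) and fibroblast (1 of 1) markers reached at most 21.7 and 12.4 CPM, epithelial markers at most 0.339 CPM, and the thrombocyte genes itga2b and mpl had 0 counts. The part of these markers in the results below was not tested.

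Of the 76 factor genes with enough counts to be tested, 7 rose and 26 fell in SP. The 7 that rose and 20 of the 26 that fell were among the 61 tested initiation factors, while 6 of the 15 elongation factors fell and 0 rose. By the same test 13% of all 15770 tested genes rose and 9.4% fell. The share of initiation factors that rose (11.5%) was thus close to that of all genes. The shares that fell (32.8% of initiation and 40% of elongation factors) were above it. Of those that fell, 16 of 20 initiation factors and all 6 elongation factors had an average log2 CPM above 7. Among all genes of that level 43.3% fell. A gene was called where edgeR's quasi-likelihood test, blocked by tumour, gave a p below 0.05 after Benjamini-Hochberg adjustment over all tested genes. The median log2 fold change (SP over nonSP) was -0.24 over initiation and -1.01 over elongation factors, against 0.09 over all tested genes. Among elongation factors 2 genes were higher at an unadjusted p below 0.05 in edgeR (eef2a.1 and eef2a.2), DESeq2 and limma voom called 0 higher each, and edgeR without tumour 1404 called 1, eef1a2 (1.24, adjusted p = 0.0497). Without tumour 1404, 3 initiation factors rose, and without tumour 1314, 12 fell. Without the tumour block edgeR called 0 genes in either direction, and 23 factor genes had an unadjusted p below 0.05. In bulk libraries of this kind, fewer cells of a type and less RNA per cell cannot be told apart.

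The scaling sets where 0 lies for these genes. When libraries were scaled by their totals alone, the median over all tested genes shifted by 1.07 on the log2 scale, to 1.15. On that scale 28 initiation factors rose and 2 fell, against 50.8% of all genes that rose and 1.76% that fell, and 4 elongation factors rose and 4 fell. The medians became 0.84 for initiation and 0.05 for elongation factors. Relative to the median of all genes, 43 of 61 initiation and 11 of 15 elongation factors were lower in SP on that scale. The 4 elongation factors that fell on both scales were eef1a1l1, eef1da, eef1b2 and eef1g, and the 4 that rose with library totals were eef2a.1, eef2a.2, eef1a2 and eef1e1.

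**Figure D1:**
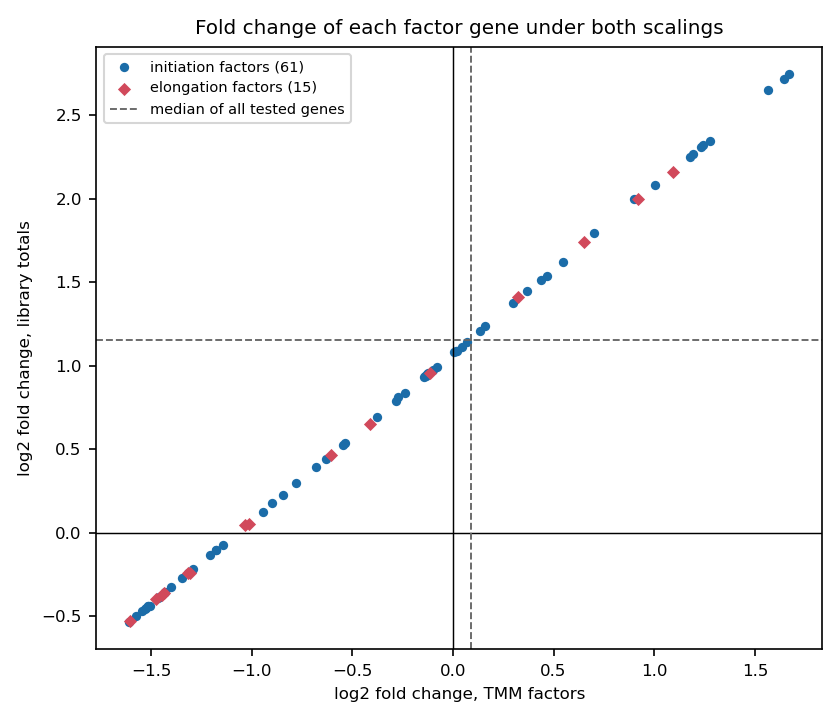
Log2 fold change (SP over nonSP) of the 76 tested factor genes with TMM factors (horizontal axis) and with library totals (vertical axis); dashed lines mark the median of all tested genes, 0.09 and 1.15. The points lie on a line offset by about 1.07, so genes between -1 and 0 on the TMM scale lie above 0 with library totals.

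**Figure D2:**
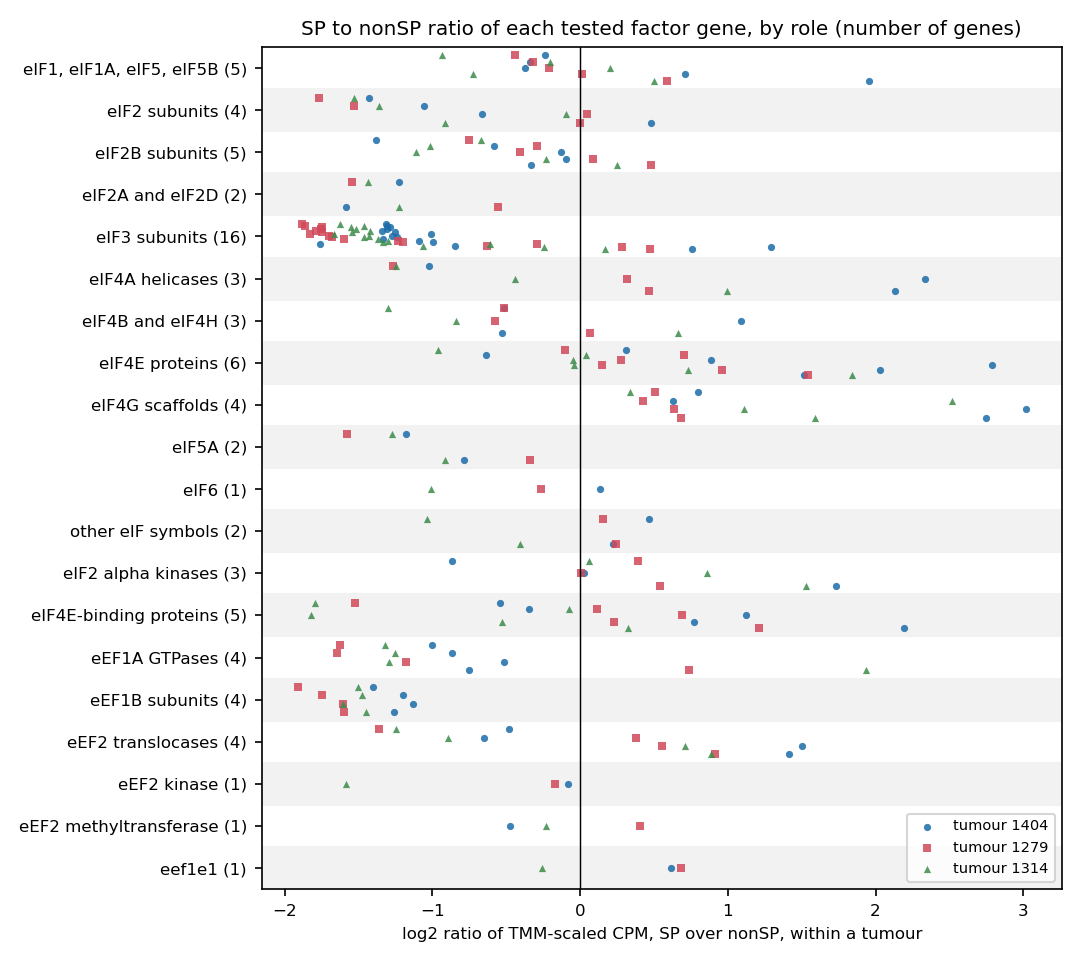
Log2 ratio of TMM-scaled CPM in SP over nonSP of the same tumour (horizontal axis) for the 76 tested factor genes, grouped by role (vertical axis, with the number of genes); each symbol is 1 gene in 1 tumour. Most eIF3 and all eEF1B subunit genes lie left of 0 in each tumour and all eIF4G genes right of it; with library totals in place of TMM factors the points move right, the median of all genes by 1.07.

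The level of a gene went with the direction. Among the 508 genes with an average log2 CPM above 7, 13.6% rose and 43.3% fell, and without factor genes and ribosomal proteins 30.3% of 402 fell. In that class 16 of 24 initiation factors fell and 2 rose, with a median log2 fold change of -1.26, and 6 of 6 elongation factors fell, with a median of -1.44. The median of all genes of the class was -0.69. Ribosomal protein genes, of which 76 of 78 tested fell, had a median of -1.61.

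**Figure D3:**
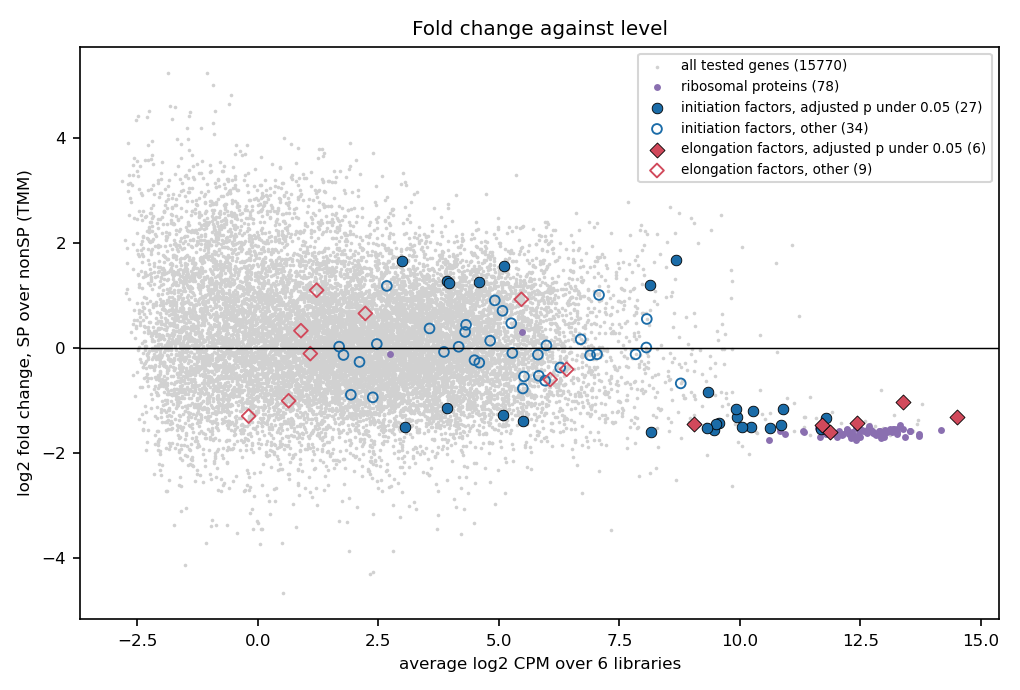
Log2 fold change of SP over nonSP with TMM scaling (vertical axis) against average log2 CPM (horizontal axis) for all 15770 tested genes, with ribosomal proteins, initiation factors and elongation factors marked; filled symbols passed an adjusted p of 0.05. The 22 factor genes above a log2 CPM of 7 that fell lie below 0 like the ribosomal proteins, whose median is -1.61, and the 2 that rose are eif4g2b and eif4a1a.

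A comparison of both classes that does not depend on scaling is the ratio of their counts within a library. Elongation factors took 3.69%, 4.33% and 3.57% of all counts in SP against 4.13%, 5.28% and 4.21% in nonSP. Initiation factors took 1.75%, 2.26% and 2.68% in SP and 1.84%, 2.42% and 2.81% in nonSP. The elongation factors thus had 2.11, 1.92 and 1.34 counts per initiation factor count in SP and 2.24, 2.18 and 1.498 in nonSP. The ratio was lower in SP in each tumour, with a log2 change of -0.09, -0.19 and -0.17 (mean -0.15 ± 0.05, SD, n = 3), a 1.11-fold difference. Both libraries of tumour 1314 lay below all others. No p is given for these sums, since the genes were chosen with results known and 3 pairs cannot give a two-sided p below 0.25 in an exact sign-flip permutation test. Set against the ribosomal proteins, both classes were higher in SP, elongation factors by a log2 ratio of 0.41, 0.35 and 0.17 and initiation factors by 0.49, 0.53 and 0.34. Sums are dominated by a few genes, and eef1a1l1 alone made up 43.5% to 52.6% of elongation factor counts. Without it the mean log2 change of the ratio was -0.13 ± 0.06 (SD, n = 3).

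**Figure D4:**
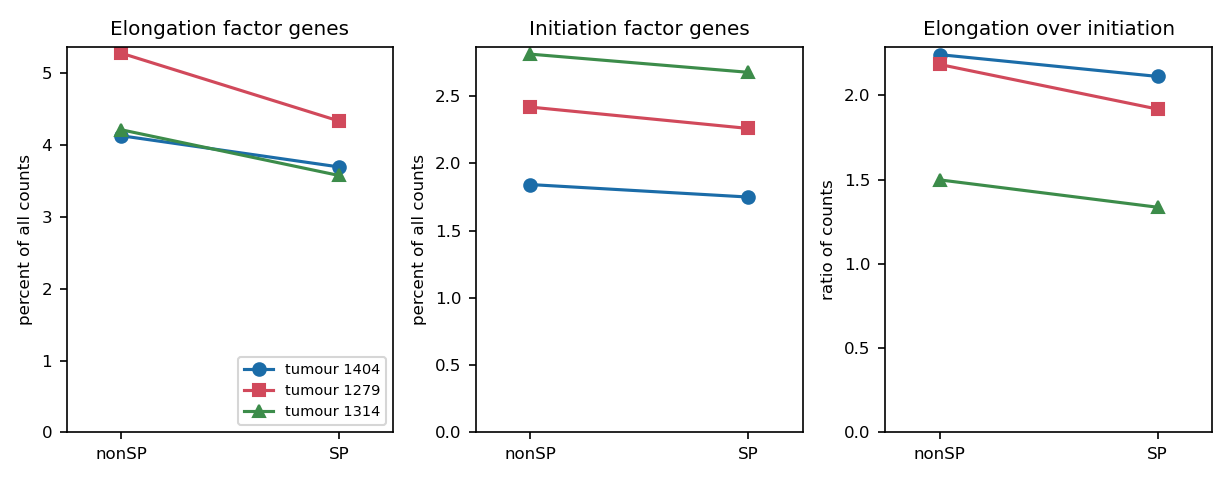
Share of all counts taken by the 15 elongation factor genes (left) and by the 63 initiation factor genes (middle), in percent, and the ratio of both counts (right), in nonSP and SP; each line joins both libraries of 1 tumour. All lines slope down from nonSP to SP, by a mean of -0.15 on the log2 scale for the ratio.

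Among elongation factors the genes that fell were the main eEF1A gene, all eEF1B subunits and 1 eEF2 gene. All 6 had an average log2 CPM above 7, where 43.3% of all genes fell. eef1a1l1, which encodes the tRNA-delivering GTPase eEF1A, stood at 15164, 15314 and 9007 CPM in SP and 30391, 47261 and 22460 CPM in nonSP, and the groups did not overlap. Its log2 fold change was -1.32 ± 0.19 (SE, n = 3, as for all values after ± that follow unless SD is named; edgeR adjusted p = 5.01e-05), a 2.49-fold decrease. That size is with TMM scaling. With library totals eef1a1l1 stood at -0.24, edgeR adjusted p = 0.0138. The other eEF1A genes had few counts, and reads of near-identical eEF1A copies may be split among them. eef1a1a and eef1a1b had 28 to 136 and 27 to 60 counts and stood at -1.01 ± 0.48 and -1.30 ± 0.53, which did not pass. eef1a2, which in mammals is the form of adult muscle and neurons, had 156, 447 and 804 counts in SP against 167, 73 and 98 in nonSP. Its log2 ratios of -0.75, 0.74 and 1.94 differed in sign among tumours, and its log2 fold change was 0.65 ± 0.48 (edgeR adjusted p = 0.337).

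The 4 genes of eEF1B, which reloads eEF1A with GTP, fell by similar amounts. Of all genes with an average log2 CPM above 7, 43.3% fell. Of 78 ribosomal protein genes 76 fell, with a median log2 fold change of -1.61. The decrease is thus not particular to eEF1B. The catalytic subunit gene eef1b2 was at 1791, 1816 and 1609 CPM in SP and 4105, 6104 and 4473 CPM in nonSP (log2 fold change -1.47 ± 0.25, edgeR adjusted p = 0.000228). eef1g, of the structural gamma subunit, was at 2425, 3600 and 2780 CPM in SP and 5804, 10917 and 7588 CPM in nonSP (-1.44 ± 0.23). Of the delta subunit genes, eef1da was at 3424, 1303 and 955 CPM in SP and 9031, 4895 and 2707 CPM in nonSP (-1.60 ± 0.24), and eef1db stood at -1.45 ± 0.32. The SP and nonSP levels of eef1da overlapped across tumours because tumour 1404 was high in both fractions, while within each tumour SP was lower. The log2 ratios of the 4 genes spanned -1.40 to -1.13 in tumour 1404, -1.91 to -1.60 in 1279 and -1.60 to -1.45 in 1314. All 4 fold changes stayed below 0 with library totals, where 3 of the 4 passed and eef1db did not (-0.37, adjusted p = 0.243), and eef1db also missed the threshold without tumour 1314 (-1.36, adjusted p = 0.0617).

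The eEF2 genes did not move together. eef2b had 485123, 500237 and 540138 counts in SP against 426953, 351223 and 606993 in nonSP, or 7192, 7711 and 5637 CPM and 10029, 19815 and 13392 CPM, without overlap between the groups. It fell by a log2 fold change of -1.03 ± 0.22 (edgeR adjusted p = 0.00199) with TMM scaling and stood at 0.044, adjusted p = 0.754 with library totals, and at -0.92, adjusted p = 0.144 without tumour 1314. The second eEF2 locus gave the opposite sign, with eef2a.1 at 62.5, 69.4 and 39.6 CPM in SP and 22.1, 47.2 and 24.2 CPM in nonSP (0.92 ± 0.38, edgeR adjusted p = 0.0789) and its neighbour in name eef2a.2 at 1.095 ± 0.45, which did not pass. The ratio of eef2b to eef2a.1 counts, which is free of scaling, was lower in SP, with log2 changes of -1.98, -1.92 and -1.96. eef2l2 varied by tumour more than by fraction, with 10582, 263 and 3296 counts in SP against 10478, 55 and 2895 in nonSP. The kinase gene eef2k, whose product inhibits eEF2, stood at 70.4, 14 and 56.6 CPM in SP and 74.6, 15.8 and 169.8 CPM in nonSP. Its log2 fold change of -0.61 ± 0.40 (edgeR adjusted p = 0.287) came mostly from tumour 1314, with ratios of -0.085, -0.17 and -1.58. The methyltransferase gene eef2kmt (-0.11 ± 0.45) and eef1e1, whose mammalian product belongs to the tRNA synthetase complex (0.32 ± 0.48), did not pass.

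**Figure D5:**
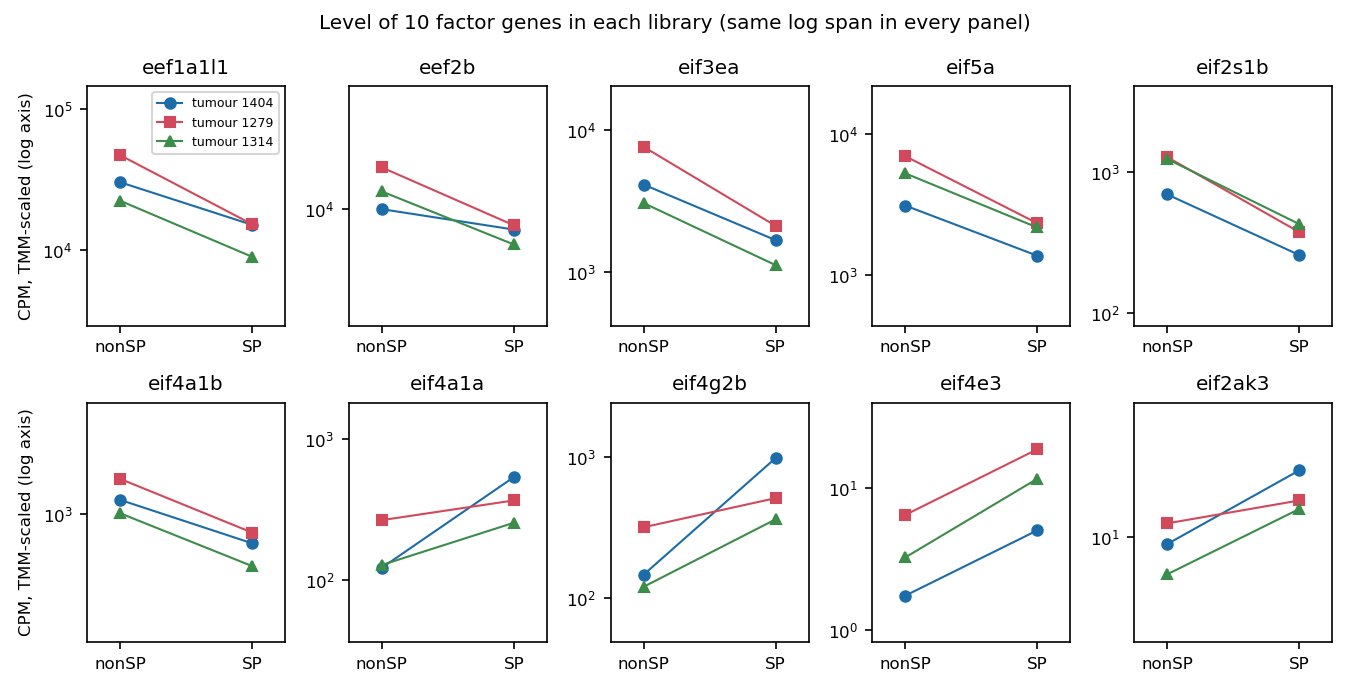
TMM-scaled CPM (log axis with the same span in every panel) of 10 factor genes in nonSP and SP; each line joins both libraries of 1 tumour. eef1a1l1, eef2b, eif3ea, eif5a, eif2s1b and eif4a1b are lower in SP in all 3 tumours and eif4a1a, eif4g2b, eif4e3 and eif2ak3 are higher; with library totals eef2b is the 1 gene of the 10 whose sign changes, to a log2 fold change of 0.04.

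The largest block of falling initiation factors was eIF3, the complex that binds the small ribosomal subunit. Of 16 tested subunit genes 13 fell, 0 rose and 3 did not pass, with a median log2 fold change of -1.46. By the same test 9.4% of all genes fell, 43.3% of those with an average log2 CPM above 7, and 76 of 78 ribosomal protein genes. The decrease is thus not particular to eIF3. eif3ea, of subunit e, was at 1670, 2109 and 1110 CPM in SP and 4134, 7652 and 3057 CPM in nonSP. The groups did not overlap, and its log2 fold change was -1.54 ± 0.25 (edgeR adjusted p = 0.000144). eif3c, of a core subunit that contacts eIF1 and eIF5, was at 819, 1222 and 1398 CPM in SP and 1635, 2799 and 3532 CPM in nonSP (-1.18 ± 0.26). eif3d, whose product can itself bind the cap in human cells, was at 969.6, 778 and 714 CPM in SP and 2401, 2627 and 2039 CPM in nonSP (-1.53 ± 0.27, edgeR adjusted p = 0.000392). eif3k, of a peripheral subunit, was at 171, 117 and 141 CPM in SP and 425, 433 and 436 CPM in nonSP, with the lowest fold change of all tested factor genes (-1.61 ± 0.35). Among the others, eif3i stood at -1.47 ± 0.26, eif3g at -1.51 ± 0.28, eif3m at -1.52 ± 0.28, eif3s6ip at -1.43 ± 0.30, eif3f at -1.46 ± 0.30, eif3ha at -1.53 ± 0.31, eif3hb at -1.51 ± 0.39 and eif3ba at -1.21 ± 0.27, all past the threshold.

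The smallest of the 13 decreases was that of eif3s10, at 331, 375 and 650.5 CPM in SP and 594, 581 and 1358 CPM in nonSP (-0.85 ± 0.30, edgeR adjusted p = 0.0439). Its call ended when any 1 tumour was left out (-0.96, adjusted p = 0.0659 without 1404, -0.94, adjusted p = 0.0619 without 1279 and -0.73, adjusted p = 0.382 without 1314), and with library totals its sign turned (0.23, adjusted p = 0.437). Without tumour 1314 the calls of eif3c (-1.09, adjusted p = 0.115) and eif3ba (-1.16, adjusted p = 0.103) ended too, and without tumour 1279 that of eif3hb (-1.33, adjusted p = 0.0797). The subunit that stood apart was eIF3j, a loosely bound subunit that acts at the decoding site. Its genes eif3ja and eif3jb stood at 0.44 ± 0.38 and 0.47 ± 0.37 and did not pass, and eif3eb, a second gene of subunit e with 60 to 321 counts, stood at -0.90 ± 0.43. eif3bb, with 5 to 18 counts, was not tested. With library totals 12 of the 16 fold changes were below 0, 2 fell (eif3ea and eif3d) and 2 rose (eif3ja and eif3jb), and 14 of 16 lay below the median of all genes, as with TMM.

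Of the eIF2 complex, 2 of 4 subunit genes fell, both with an average log2 CPM above 7. By the same test 9.4% of all genes fell, and 43.3% of those above that level. eif2s1b, of the alpha subunit on which the stress kinases act, was at 258, 375 and 427 CPM in SP and 693, 1274 and 1235 CPM in nonSP, without overlap (-1.57 ± 0.30, edgeR adjusted p = 0.000829). eif2s3, of the GTP-binding gamma subunit, was at 309, 699 and 627 CPM in SP and 642, 2023 and 1609 CPM in nonSP (-1.32 ± 0.29), with -1.29, adjusted p = 0.069 without tumour 1314. The other alpha gene eif2s1a and the beta gene eif2s2 stood at -0.24 ± 0.36 and -0.14 ± 0.39 and did not pass. With library totals the calls of eif2s1b (-0.50, adjusted p = 0.0731) and eif2s3 (-0.24, adjusted p = 0.351) ended. None of the 5 genes of eIF2B, the exchange factor that recharges eIF2, passed in edgeR, with log2 fold changes from -0.95 (eif2b3, adjusted p = 0.0878) to 0.13 (eif2b4). eif2b5, of the catalytic subunit, was at 22.7, 24.6 and 86.6 CPM in SP and 33.9, 30.1 and 175 CPM in nonSP. Both genes of alternative initiator tRNA factors fell, where 9.4% of all genes did. eif2a was at 18.8, 17.3 and 37.9 CPM in SP and 43.9, 50.4 and 102 CPM in nonSP (-1.40 ± 0.37, edgeR adjusted p = 0.00932). eif2d stood at -1.14 ± 0.37 (edgeR adjusted p = 0.0304), and its call ended without tumour 1404 (-1.02, adjusted p = 0.0542), 1279 (-1.39, adjusted p = 0.0571) or 1314 (-1.09, adjusted p = 0.183). The call of eif2a ended without tumour 1279 (-1.31, adjusted p = 0.0859) or 1314 (-1.38, adjusted p = 0.0646), and both ended with library totals.

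The factors of start-site selection and subunit joining had 0 of 5 genes past the threshold. eif5, which triggers GTP hydrolysis by eIF2, was at 281, 331 and 185 CPM in SP and 171, 327 and 305 CPM in nonSP, and its ratios of 0.71, 0.017 and -0.72 pointed in different directions (0.0030 ± 0.37). eif1b stood at -0.13 ± 0.36, eif1axa and eif1axb, the genes of eIF1A, at -0.29 ± 0.35 and -0.54 ± 0.37. eif5b, of the GTPase that joins the subunits, was at 115, 59.7 and 331 CPM in SP and 29.7, 39.8 and 234 CPM in nonSP, higher in 3 of 3 tumours, with a log2 fold change of 1.005 ± 0.40 (edgeR adjusted p = 0.0718).

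Of the 7 genes that rose, 5 belong by name to the eIF4A, eIF4E and eIF4G families. These were 1 of 3 tested eIF4A, 2 of 6 eIF4E and 2 of 4 eIF4G genes, where 13% of all genes rose. The 2 eIF4G genes are of a relative and not of the classical scaffold of eIF4F, so the count is not one of eIF4F. eif4g2b, of an eIF4G relative that lacks the eIF4E-binding part and serves cap-independent initiation in mammals, was at 985, 512 and 362 CPM in SP and 147, 319 and 121 CPM in nonSP. The groups did not overlap, and the log2 fold change of 1.67 ± 0.38 (edgeR adjusted p = 0.00355) was the highest of the 76 tested genes, although the ratios of 2.75, 0.69 and 1.59 spread widely. Its paralog eif4g2a was at 97.7, 32.3 and 30.3 CPM in SP and 12.1, 20.8 and 14 CPM in nonSP (1.57 ± 0.44, edgeR adjusted p = 0.0139), and stood at 0.76, adjusted p = 0.148 without tumour 1404. Without tumour 1404 eif4g2b stood at 1.02, adjusted p = 0.0398. The classical scaffold genes did not pass, eif4g1a at 0.55 ± 0.35 (edgeR adjusted p = 0.266) and eif4g3b at 1.18 ± 0.44 (edgeR adjusted p = 0.0564), though all 4 eIF4G genes were higher in SP in each tumour with TMM scaling and had fold changes above 0 under each scaling tried.

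Of 6 tested eIF4E genes 2 rose. eif4e3, whose mammalian counterpart binds the cap in an atypical way, had 340, 1228 and 1121 counts in SP against 74, 115 and 147 in nonSP, or 5.04, 18.9 and 11.7 CPM and 1.74, 6.49 and 3.24 CPM. Levels overlapped between the fractions of different tumours, but the ratios of 1.52, 1.54 and 1.84 were nearly equal (1.64 ± 0.38, edgeR adjusted p = 0.00378). eif4ea, a gene of the main cap binder, was at 13.1, 22.3 and 27 CPM in SP and 3.17, 11.5 and 16.3 CPM in nonSP (1.23 ± 0.38, edgeR adjusted p = 0.0229). Its call ended without tumour 1404 (0.73, adjusted p = 0.175) or 1279 (1.39, adjusted p = 0.0709). eif4e1c was higher in SP mainly in tumour 1404, with ratios of 2.79, 0.15 and -0.044 and a log2 fold change of 0.90 ± 0.47 (edgeR adjusted p = 0.174). eif4eb (-0.27 ± 0.42), eif4e2 (0.019 ± 0.43) and eif4e2rs1 (0.37 ± 0.37) did not pass. The gene eif4e1b had 2 counts in SP of tumour 1404 and 0 in the other libraries and was not tested.

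Of the eIF4A helicase genes, 1 rose and 1 fell with TMM scaling. eif4a1a was at 539, 369 and 256 CPM in SP and 123, 267 and 129 CPM in nonSP, and its level in SP of tumour 1314 lay within the nonSP range (1.19 ± 0.38, edgeR adjusted p = 0.0281). eif4a1b was at 619, 738 and 427 CPM in SP and 1257, 1771 and 1011 CPM in nonSP, without overlap (-1.18 ± 0.28, edgeR adjusted p = 0.0049). eif4a1a had 36346, 23908 and 24529 counts in SP against 5231, 4736 and 5830 in nonSP. eif4a1b had 41759, 47844 and 40913 counts in SP against 53519, 31386 and 45803 in nonSP. The ratio of eif4a1a to eif4a1b was higher in SP by 3.15, 1.73 and 2.24 on the log2 scale (mean 2.37 ± 0.72, SD, n = 3), or 5.18-fold. The unscaled counts of eif4a1b alone were lower in SP in tumours 1404 and 1314 and higher in 1279. The call of eif4a1a ended with RLE factors (1.11, adjusted p = 0.0501) and without tumour 1404 (0.61, adjusted p = 0.238) or 1314 (1.30, adjusted p = 0.106). That of eif4a1b ended without tumour 1314 (-1.14, adjusted p = 0.109) and with library totals (-0.10, adjusted p = 0.713). eif4a2 had ratios of 2.34, 0.32 and -0.44, and a log2 fold change of 0.70 ± 0.46, which did not pass. The eIF4A cofactor genes eif4bb (-0.13 ± 0.42), eif4ba (0.070 ± 0.40) and eif4h (-0.78 ± 0.38) did not pass either.

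eif5a encodes the hypusine-containing factor eIF5A, which was named for initiation and also acts when ribosomes stall in elongation. It was at 1373, 2332 and 2176 CPM in SP and 3111, 6961 and 5262 CPM in nonSP, without overlap, and fell by a log2 fold change of -1.34 ± 0.24 (edgeR adjusted p = 0.000466). With library totals it stood at -0.27, adjusted p = 0.123. Its paralog eif5a2 stood at -0.68 ± 0.32 (edgeR adjusted p = 0.128). Another grouping counted eIF5A as an elongation factor. It left out the regulators (eIF2 kinases, eIF4E-binding proteins, eef2k), eef2kmt, eef1e1, eif6, eif4a3 and eif1ad. In it 7 of 14 elongation factors (50%) and 18 of 48 initiation factors (37.5%) fell, and 5 initiation factors (10.4%) rose. Of all tested genes 9.4% fell and 13% rose, and of those with an average log2 CPM above 7, 43.3% fell. eif6, of a factor that keeps ribosomal subunits apart, stood at -0.38 ± 0.39, eif4a3, a helicase of the exon junction complex, at -0.13 ± 0.40, and eif1ad at 0.017 ± 0.36. None of these 3 passed.

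Of the regulators of initiation (kinases of eIF2 and proteins that bind eIF4E), eif2ak3 and eif4enif1 rose, eif4ebp3 fell and the other 5 did not pass, where 13% of all genes rose and 9.4% fell. Each of these 3 calls ended with 1 or another tumour left out. Of 3 tested eIF2 kinase genes, eif2ak3, of the kinase PERK that senses stress in the endoplasmic reticulum, rose. It was at 29.7, 18.2 and 15.8 CPM in SP and 8.93, 12.5 and 5.45 CPM in nonSP, without overlap (1.28 ± 0.38, edgeR adjusted p = 0.0186), and stood at 0.93, adjusted p = 0.1 without tumour 1404 and 1.14, adjusted p = 0.129 without tumour 1314. eif2ak1 and eif2ak2, of the kinases that respond in mammals to low haem and to double-stranded RNA, stood at 0.30 ± 0.36 and -0.14 ± 0.43. eif4enif1, of the protein that carries eIF4E into the nucleus and into RNA granules, was at 33.3, 41.4 and 24.3 CPM in SP and 7.26, 17.8 and 19.3 CPM in nonSP (1.24 ± 0.40, edgeR adjusted p = 0.0281). Its call ended without tumour 1404 (0.65, adjusted p = 0.222) or 1279 (1.28, adjusted p = 0.111). Of the genes of eIF4E-binding repressors, eif4ebp3 fell, and was at 53.2, 4.27 and 12.8 CPM in SP and 77.6, 12.4 and 44.3 CPM in nonSP (-1.29 ± 0.39, edgeR adjusted p = 0.0196). It stood at -1.15, adjusted p = 0.146 without tumour 1279, -1.03, adjusted p = 0.205 without 1314 and -0.22, adjusted p = 0.656 with library totals. eif4ebp1 (0.16 ± 0.39) and eif4ebp2 (-0.10 ± 0.36) did not pass. eif4ebp3l had ratios of 1.12, 0.69 and -1.82, opposite in tumours 1404 and 1314, and stood at 0.044 ± 0.49.

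Within a library the ratio of 2 genes needs no scaling, and 13 pairs of like-named copies were compared. The ratio changed in the same direction in all 3 tumours in 5 pairs. These were eif4a1a to eif4a1b and eef2b to eef2a.1, given above, eif4ea to eif4eb (higher in SP by 1.73, 1.06 and 1.70 on the log2 scale), eif2s1b to eif2s1a (lower, at -0.76, -1.81 and -1.44) and eif5a to eif5a2 (lower, at -0.39, -1.24 and -0.36). In the other 8 pairs the direction differed among tumours. Among these, eif3ha to eif3hb (mean -0.01 ± 0.23, SD, n = 3), eef1da to eef1db (-0.16 ± 0.22) and eif4g2a to eif4g2b (-0.08 ± 0.37) had small changes. These are values and not calls, as the same limit on p holds for each pair. How reads shared by similar copies were counted is not stated in the labels or the processing notes.

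Other genes of the translation machinery were taken from 7 lists. Of 67 tested genes 6 rose (8.96%, against 13% of all genes) and 14 fell (20.9%, against 9.4%), and the median log2 fold change was -0.19. The lists hold 8 to 13 tested genes each, so their counts are descriptions to be read against these shares. Of 11 genes outside the factors and ribosomal proteins with a TOP messenger in mammals, 6 fell (54.5%) and 0 rose. All but npm1b had an average log2 CPM above 7. In that class 43.3% of all genes fell, and 30.3% without factor genes and ribosomal proteins. The receptor for activated kinase C, listed as gnb2l1, stood at -1.57 ± 0.21, the nascent chain gene naca at -1.55 ± 0.22, its partner btf3 at -1.44 ± 0.24, tpt1 at -1.38 ± 0.20, the poly(A)-binding gene pabpc1a at -1.22 ± 0.24 and the histone chaperone gene nap1l1 at -0.82 ± 0.27. nap1l1 lost its call without tumour 1279 (-0.80, adjusted p = 0.0994) or 1314 (-0.65, adjusted p = 0.41) and turned with library totals (0.26, adjusted p = 0.262). pabpc1a stood at -0.15, adjusted p = 0.406 with library totals. Of 10 poly(A)-binding proteins and partners 2 rose and pabpc1a fell. larp4b, of a protein that stabilises messengers at their poly(A) tail, was at 22.1, 46.7 and 53.3 CPM in SP and 4.6, 20 and 16.4 CPM in nonSP (1.73 ± 0.38), and pabpc1l had 318, 105 and 142 counts in SP against 64, 10 and 4 in nonSP (2.23 ± 0.55, and 1.59, adjusted p = 0.0827 without tumour 1314).

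Of 9 kinases and inhibitors of cap-dependent initiation 2 rose (22.2%, against 13% of all genes) and 0 fell (against 9.4%), a count too small to set the list apart from all genes. mknk2b, of a kinase that phosphorylates eIF4E, was at 3903, 2507 and 1334 CPM in SP and 1279, 942 and 378 CPM in nonSP, with even ratios of 1.61, 1.41 and 1.82 and no overlap between the groups (1.61 ± 0.27, edgeR adjusted p = 0.000202). pdcd4b, of an inhibitor of eIF4A, was at 146, 341 and 73.3 CPM in SP and 25.4, 195 and 20.8 CPM in nonSP (1.72 ± 0.41). Both stayed called in edgeR with each tumour left out. The paralog pdcd4a had the opposite sign, at 27, 30.4 and 127 CPM in SP and 64, 29.2 and 320 CPM in nonSP. It did not pass (-0.85 ± 0.40, edgeR adjusted p = 0.127). Of 13 targets of eIF2 phosphorylation signalling 2 rose (15.4%) and 1 fell (7.69%), shares near the 13% and 9.4% of all genes. sesn2, which restrains mTOR, rose (2.03 ± 0.42), as did ppp1r15a, whose product leads to dephosphorylation of eIF2 (1.13 ± 0.36, edgeR adjusted p = 0.0274). The call of ppp1r15a ended without tumour 1404 (0.95, adjusted p = 0.0527), 1279 (1.32, adjusted p = 0.0826) or 1314 (1.03, adjusted p = 0.21). atf4a, of the transcription factor that is translated under stress, fell (-1.43 ± 0.30, edgeR adjusted p = 0.00182), with -1.26, adjusted p = 0.078 without tumour 1314 and -0.36, adjusted p = 0.209 with library totals. Its paralog atf4b was at 484, 398 and 226 CPM in SP and 555, 488 and 241 CPM in nonSP. It did not pass (-0.19 ± 0.32, edgeR adjusted p = 0.705).

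Of 8 termination and recycling genes 2 fell (25%) and 0 rose, where 9.4% of all genes fell and 13% rose. Those that fell were the partners denr (-1.15 ± 0.38) and mcts1 (-1.07 ± 0.37), which release tRNA from small subunits after termination. Neither passed without tumour 1279 (-1.44, adjusted p = 0.0566 and -1.38, adjusted p = 0.0608) or 1314 (-0.998, adjusted p = 0.192 and -0.91, adjusted p = 0.243). Of 9 genes listed under hypusine and diphthamide modification, the changes that eIF5A and eEF2 carry, 2 fell (22.2%) and 0 rose. The genes that fell were dohh (-1.09 ± 0.37) and dph6 (-1.38 ± 0.36). The list also holds eefsec, of the selenocysteine elongation factor, which makes neither change and did not pass (-1.19 ± 0.45). dohh did not pass with any 1 tumour left out (adjusted p of 0.0538, 0.137 and 0.0803 in edgeR), nor dph6 without tumour 1279 (-1.43, adjusted p = 0.0584) or 1314 (-1.34, adjusted p = 0.061). The calls of denr, mcts1, dohh and dph6 ended with library totals, at -0.08, -0.0019, -0.02 and -0.30. Of 9 mitochondrial translation factors 3 fell (33.3%, against 9.4% of all genes) and 0 rose. gfm2, of a mitochondrial ribosome recycling factor, was at 6.32, 10.4 and 26 CPM in SP and 33.1, 70.7 and 66.3 CPM in nonSP, and its log2 fold change of -2.17 ± 0.40 (edgeR adjusted p = 0.000644) passed with library totals as well (-1.0999, adjusted p = 0.013). mrrf (-1.53 ± 0.36) and mtif3 (-1.68 ± 0.46) fell with TMM and did not pass with library totals, and mtif3 did not pass without tumour 1279 (-1.76, adjusted p = 0.052) or 1314 (-1.67, adjusted p = 0.0862).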

How the data were processed

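RNA of 6 sorted libraries, SP and nonSP of 3 tumours of zebrafish acute lymphoblastic leukaemia, was analysed from the gene counts that the authors deposited, 1 table per library. STAR 2.5.1b, featureCounts 1.28.1, Cufflinks 2.2.1, DESeq 1.30.0, edgeR 3.20.7 and the build GRCz10 are named in the submitters' processing notes. The sources used here give neither the role of each tool nor the annotation and strand setting, so overlapping and antisense genes are not told apart. All 78 factor symbols matched a current RefSeq symbol. Genes were kept by filterByExpr (minimum count 10, minimum total 15), which left 15770 genes and, in every library, 99.8% of counts or more. Fits used edgeR 4.0.16 in R 4.3.3 with TMM factors, tumour as a block and robust quasi-likelihood tests, with Benjamini-Hochberg adjustment over all tested genes. The fit was also run on simulated counts. There both fractions of a tumour had the same composition apart from the changed genes, so that run does not bear on the scaling. The common biological coefficient of variation was 0.353. Alternatives were DESeq2 1.42.0, limma 3.58.1 voom, other scalings, filters and thresholds, and each tumour left out. SE is the log2 fold change divided by the root of F. Log2 ratios per tumour add a prior count of 2. Ratios of copies add 0.5 to each count.

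The pairing comes from the tumour numbers in the labels, under which both fractions of a number are from 1 tumour. Deviations from the group means correlated at 0.753, 0.839 and 0.818 within tumours and between -0.485 and -0.274 across them. Deviations from a mean of 3 libraries sum to 0, so the negative values follow from the positive ones and add nothing to them. Nothing in the labels says how the tumours are related to each other, and p-values cover these 3 alone. The edgeR p-values and SE do not rest on the spread of a gene's own 3 ratios alone. That spread is drawn toward one shared by all genes, with 23.2 prior degrees of freedom. Genes with even and with uneven ratios can thus carry a similar SE. Genes were named by rule: in each role all genes past the threshold, the gene with the highest mean CPM and that with the lowest p, all untested genes, and in each related list up to 3 genes with the lowest p. Other members, TOP genes and the paralogs atf4b and pdcd4a were added after their values were seen. The genes, roles, lists and markers were chosen with earlier results of these data known. Counts carry counting error only within a library, and PCR copies were not told apart.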

Additional observations from a re-analysis of the deposited data

How the results depend on the processing

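The elongation to initiation ratio stayed below 0 in all settings in which it could change, from -0.18 to -0.13 with a tumour left out. Scaling and pairing set the counts. Library totals gave 8015 genes higher and 277 lower of all tested (2047 and 1483 with TMM), 28 and 2 initiation factors (7 and 20), 4 elongation factors higher (0) and 31 and 5 related genes (6 and 14), with medians of 0.84 for initiation and 0.050 for elongation factors. RLE and upper-quartile factors, DESeq2, limma voom and TMM without ribosomal protein and mitochondrial genes kept all 33 calls of factor genes except that of eif4a1a with RLE. Without the replicate block 0 genes were called by edgeR in either direction for all tested genes, initiation factors, elongation factors and related genes, while 1251 genes and 23 factor genes had an unadjusted p below 0.05. The stricter filter left 1048 genes higher and 904 lower and a median of -1.32 for elongation factors. At an adjusted p of 0.1, 2 elongation factors and 10 related genes were higher. With 1 tumour left out, 1141 to 1396 genes were higher and 667 to 1685 lower. Among initiation factors 3 to 5 were higher and 12 to 19 lower, and among elongation factors 0 to 1 higher and 4 to 7 lower. Among related genes 4 to 5 were higher and 7 to 17 lower. The medians then ran from -0.57 to -0.24 for initiation and from -1.39 to -0.84 for elongation factors. The cause of these shifts was not tested, beyond fewer genes or samples in the filter and leave-out fits.

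Genes whose sign turned had, apart from eef2b, eif3s10 and nap1l1, not been called. With library totals the log2 fold changes became 0.94 for eif4a3, 0.46 for eef2k, 0.81 for eif4eb, 0.23 for eif3s10, 0.050 for eef1a1a, 0.97 for eif4ebp2, 0.94 for eif2ak2, 0.30 for eif4h, 0.84 for eif2s1a, 0.95 for eif1b, 0.18 for eif3eb, 0.44 for eif2b5, 0.39 for eif5a2, 0.12 for eif2b3, 0.044 for eef2b, 0.53 for eif2b2, 0.54 for eif1axb, 0.96 for eef2kmt, 0.79 for eif1axa, 0.65 for eef2l2, 0.99 for eif2b1, 0.96 for eif4bb, 0.93 for eif2s2, 0.70 for eif6 and 0.26 for nap1l1. With DESeq2 eif4ebp3l (-0.038), eif1ad (-0.068), eif4e2 (-0.065), eif5 (-0.083) and eif4ba (-0.014) turned, with RLE factors eif4ebp3l (-0.042), eif1ad (-0.068), eif4e2 (-0.065), eif5 (-0.083) and eif4ba (-0.014), and with upper-quartile factors eif4ebp3l (-0.025), eif1ad (-0.045), eif4e2 (-0.041) and eif5 (-0.060). The limma voom fit turned eif4ebp3l (-0.12) and eif5 (-0.097). TMM without ribosomal protein and mitochondrial genes turned eif5 (-0.0086) and the stricter filter eif5 (-0.0014). Without the replicate block eif1ad (-0.12), eif4e2 (-0.0011) and eif5 (-0.012) turned. With 1 tumour left out, the log2 fold change ranged over both signs in 16 genes, for eif4a3 from -0.56 to 0.31, eif4eb -0.66 to 0.11, eif4e1c -0.060 to 1.47, eif2ak2 -0.39 to 0.11, eif4ebp3l -0.71 to 0.91, eif1ad -0.20 to 0.24, eif4a2 -0.18 to 1.33, eif4e2 -0.28 to 0.25, eif5 -0.47 to 0.37, eif2b4 -0.025 to 0.25, eif4ebp1 -0.26 to 0.51, eif4ba -0.24 to 0.27, eef1a2 -0.011 to 1.24, eif3ja -0.095 to 0.79, eif4bb -0.82 to 0.26 and eif2s2 -0.57 to 0.24.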

Other observations

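A further 6 rows carry a factor symbol in capitals and so were not counted among the 78 genes. EEF1D (2 of 3), another row of the eEF1B delta subunit, had 4951, 1684 and 1921 counts in SP against 7810, 1892 and 2535 in nonSP, and fell (log2 fold change -1.61 ± 0.38, SE, n = 3, edgeR adjusted p = 0.0046). EIF1B had 968, 1906 and 4126 counts in SP against 894, 900 and 3778 in nonSP and stood at -0.76 ± 0.37 (edgeR adjusted p = 0.131). EIF4G3 (2 of 2) had 2 to 50 counts and stood at 0.33 ± 0.68. The rows of EIF3J (3 of 3), EIF2AK4 and EIF4G1 (2 of 2) were at 0 in all 6 libraries.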
